A study of Mus musculus with 8 samples.

Results

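The cytosolic ribosomal protein genes encode the protein part of the 60S and 40S ribosomal subunits. They were taken here as every non-control array probe whose RefSeq accession maps to a gene symbol made of Rpl or Rps and a number (with an optional final a, x or l), or to Rplp0, Rplp1, Rplp2 or Rpsa. Rps6k kinases and pseudogene symbols ending in -ps were left out. The rule found 166 probes of 80 genes, with 1 to 7 probes a gene, among 55681 non-control probes and 20141 named genes on the array. Of the 166 probes, 164 rose well above background on 4 or more of the 8 arrays and were tested, which left every one of the 80 genes with at least 1 tested probe. Of the untested probes, the one of Rpl10l was above background on 0 PRH-labelled and 2 control arrays. All but 1 tested probe map to a protein-coding gene. The exception is Rps4l, whose accession RefSeq annotates as a transcribed pseudogene. Rps23 was not analysed here.

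Expression was measured on 1-colour Agilent arrays in 8 tumours grown from 4T1, a line of mouse mammary carcinoma cells that grows and spreads in BALB/c mice. PRH-labelled tumours (n = 4, mouse numbers 1, 2, 3 and 5) came from cells infected with an adenovirus carrying PRH, the homeodomain transcription factor encoded by Hhex. Control tumours (n = 4, the same mouse numbers) came from cells infected with an empty adenovirus. In both groups the infection was at a multiplicity of 50 for 24 h, the cells went into the number 3 fat pad of female BALB/C mice aged 6 to 8 weeks, and the tumours were taken on day 22. Both groups therefore carried adenovirus at the start, and the stroma and blood cells of each tumour came from the host. The labels disagree on the material: the design text speaks of tumour RNA, the extraction protocol of endothelial isolates. Moreover, the arrays are called human in the design text, whereas the probes carry mouse accessions.

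Most ribosomal proteins are needed in equal numbers, and cells make them in step. Most of their mRNAs begin with a C followed by a run of pyrimidines, the 5′ terminal oligopyrimidine (TOP) motif, through which the kinase mTOR, acting on Larp1 and on the 4E-BP proteins, switches their translation on and off together. Their mRNAs are among the most abundant in growing cells, and a few of the proteins, such as Rpl5 and Rpl11, also bind Mdm2 and so couple the state of the ribosome to p53.

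Levels below are log2 of the background-corrected signal minus the array's 75th percentile, so that a level of 8 means a signal 8 doublings above that percentile. A difference is the mean of the PRH-labelled tumours minus that of the control tumours on this scale, with its standard error (SE). A call is an adjusted p under 0.05 from limma, adjusted over all 39463 tested probes. Where 4 values are listed for a group, they are those of tumours 1, 2, 3 and 5.

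Hhex itself went against the label. Its level was -1.71, -1.46, -1.79 and -1.72 in PRH-labelled tumours, against -0.54, -0.33, -0.69 and -0.78 in control tumours. It was lower in every PRH-labelled tumour, by -1.09 (SE 0.148, adjusted p = 0.00674), so the groups are called by their labels throughout. All 8 arrays lay on 1 slide, with the PRH-labelled arrays in column 1 and the control arrays in column 2, so that column cannot be told apart from group. The 75th percentile of the signal was 679.1 to 761.5 on PRH-labelled arrays and 1003 to 1283 on control arrays, and 72.22% to 73.9% of probes on PRH-labelled arrays and 64.17% to 69.76% on control arrays stood well above background. No spot was saturated. Since the percentile sets the zero of the scale and the groups differ in it, the direction of a ribosomal protein gene depends on the scaling, and results under other scalings are given beside the main ones.

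Pyrimidine-rich motifs were more frequent near the starts of these genes than near all annotated starts. RefSeq promoter windows (mouse assembly GRCm38.p6) matched 59 of the 80 genes, with 71 annotated starts. From 50 bases before to 50 after the start, CTTTC was found on the gene's strand in 35 of 71 windows (49.3%), of 31 genes, against 12.8% of all 32851 windows, and CTTCC in 43.7% against 19.5%. On either strand the shares were 57.7% against 23.4% for CTTTC, and 60.6% against 37.4% for CTTCC. The ETS-type motif CCGGAAG was found on either strand in 18.3% against 5.21%, and the TATA motif TATAAA on the gene's strand in 5.63% against 3.4%. A C followed by at least 5 pyrimidines lay between 30 bases before and 12 bases after the start in 41 of 71 windows (57.7%), against 31.3% of all windows. The 41 windows belong to 38 of the 59 genes. The CT-rich motifs and this run can overlap, and a match describes the letters only. Some runs end before the annotated start, such as those of Rpl5 (from -20, 9 bases long) and Rpl13 (from -16, 10 bases long). Whether an mRNA begins with a TOP motif is therefore not shown by a run or by its absence. The windows below show the run at genes whose probes were called in opposite ways in the results that follow, with the run in capitals, read 5′ to 3′ on the gene's strand, with 30 bases before the annotated start and 12 from it on. Rps27, Rpl34 and Rpl13 had probes called higher, Rpl7a and Rpl5 had a probe called lower, and Rpl35a had one of each. Rps16, with 3 probes called higher, has no such run in its window, nor has Rpl10l.
Rps27, chr3:90213637-90213678, minus strand: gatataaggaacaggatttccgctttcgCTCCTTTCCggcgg
Rpl34, chr3:130730326-130730367, minus strand: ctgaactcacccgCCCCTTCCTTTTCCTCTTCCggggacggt
Rpl13, chr8:123102320-123102361, plus strand: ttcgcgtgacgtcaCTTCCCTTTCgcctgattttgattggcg
Rpl7a, chr2:26910777-26910818, plus strand: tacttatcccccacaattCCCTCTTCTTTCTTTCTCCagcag
Rpl5, chr5:107900498-107900539, plus strand: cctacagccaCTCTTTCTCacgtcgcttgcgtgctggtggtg
Rpl35a, chr16:33056452-33056493, plus strand: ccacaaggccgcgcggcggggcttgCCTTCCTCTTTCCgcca
Rps16, chr7:28350659-28350700, plus strand: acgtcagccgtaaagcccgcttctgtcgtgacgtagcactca
Rpl10l, chr12:66284390-66284431, minus strand: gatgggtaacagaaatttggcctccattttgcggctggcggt

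Relative to the 75th percentile, ribosomal protein probes were more often higher than lower in PRH-labelled tumours. Of the 164 tested probes 52 were called higher (31.7%, against 16.1% of all tested probes) and 7 were called lower (4.27%, against 10.1%). Their median difference was 0.29, against 0.22 over all tested probes, so that the family's median sat 0.07 above that of all probes. The median of all tested probes varied with brightness. It was 0.87 in the dimmest 10%, -0.16 at mean levels of 0.33 to 1.55 and 0.06 in the brightest 10%. The 0.07 is therefore not a distance from a shift common to all probes. In 88 probes the 4 PRH-labelled tumours all lay above the 4 control tumours (18.8% of all tested probes did so), and in 5 they all lay below (12.7%). Large-subunit genes had 97 tested probes, 29 higher and 6 lower, with a median of 0.27. Small-subunit genes had 57, 20 higher and 1 lower, with a median of 0.36. The stalk had 5, with 2 higher, and the paralogs whose symbols end in l had 5, with 1 higher. The count of higher calls was 29, 29, 26 and 29 without PRH-labelled tumours 1, 2, 3 and 5 in turn (11.3%, 12.5%, 14% and 11.7% of all tested probes), 30 without control 2 (11.5%) and 28 without control 5 (11.5%). The count of lower calls was 14 without control 1 (15.6%), 3 without PRH-labelled tumour 3 (6.15%), 2 without PRH-labelled tumours 1, 2 and 5 in turn (5.54%, 5.77% and 5.69%), and 2 without controls 2, 3 and 5 in turn (5.48%, 6.85% and 5.21%). Without control 1 there were 51 higher calls (18.2%) and without control 3 there were 44 (13.6%). With the mouse number as a block the counts were 46 and 7 (24.8% and 9.59% of all tested probes). With 1 value a gene they were 35 and 1 of 80 genes for the brightest probe (17.2% and 8.68% of all genes and unnamed probes) and 25 and 1 where the probes were averaged over the gene (16.5% and 8.49%). Without the filter on low signal they were 42 and 2 of 166 (11.7% and 5.69%), and with all 8 arrays above background 55 and 6 of 161 (17.5% and 14%). The p-values reflect only the spread among these 8 tumours, and in whole tissue fewer cells of a type and less RNA per cell cannot be told apart.

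**Figure D1:**
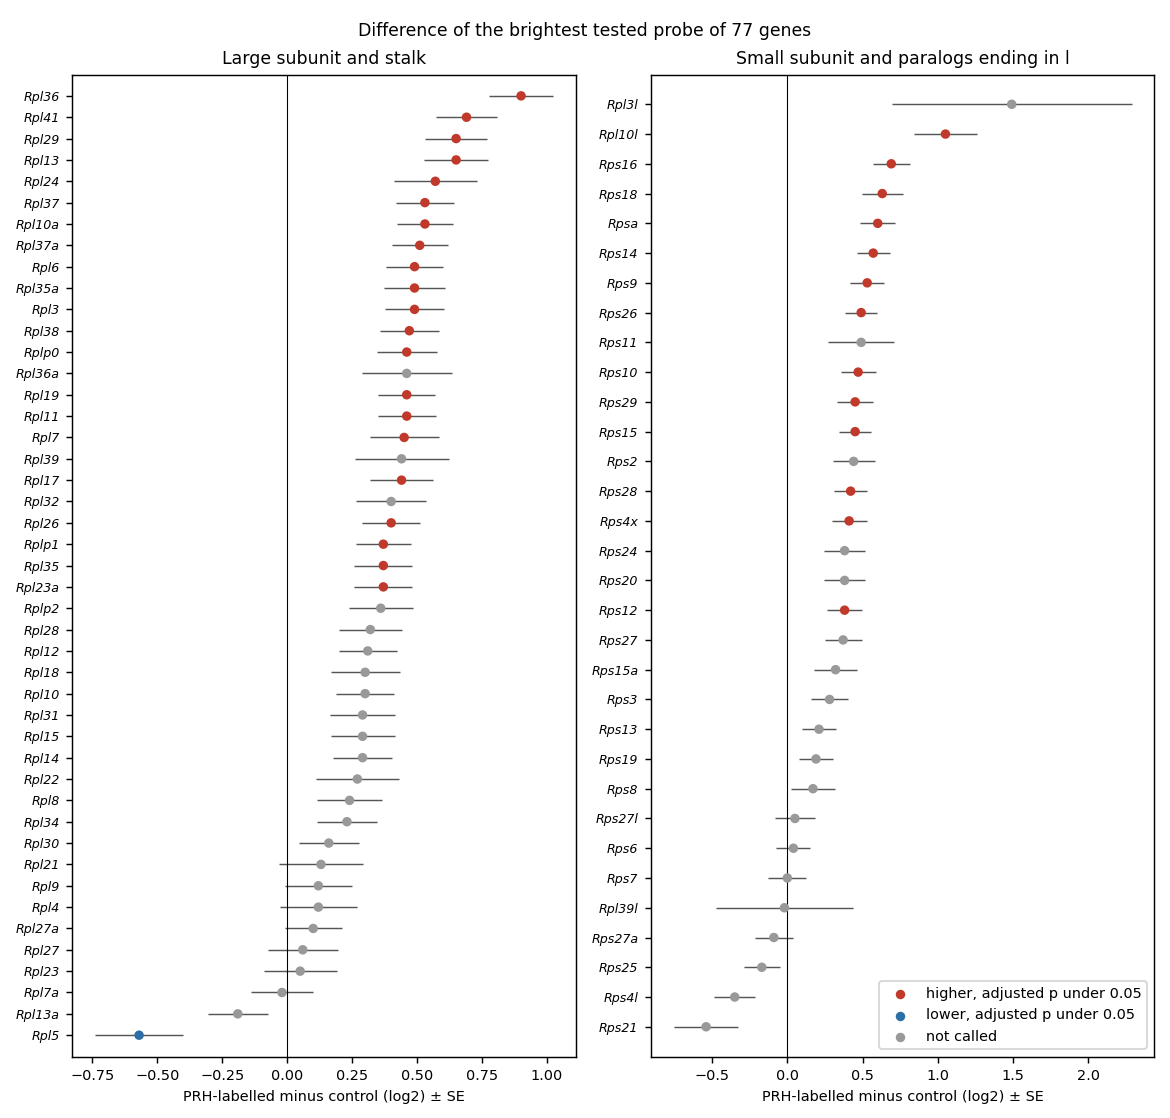
Difference between PRH-labelled and control tumours (log2, horizontal axis, with its SE) for the brightest tested probe of 77 genes, with large-subunit and stalk genes on the left and small-subunit genes and paralogs on the right. Red points were called higher (34 genes), the blue point lower (Rpl5) and grey points were not called. Most genes lie right of 0.

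The direction of the family turned with the scaling. When each array was centred on its median, 1 member probe was called higher and 21 lower (7.9% and 25% of all tested probes), with a median difference of -0.18 against -0.25 over all probes. After quantile normalization 7 were higher and 14 lower (11.3% and 15.8% of all), with medians of 0.03 and 0.01. With normexp background correction and quantile normalization 15 were higher and 16 lower (10.3% and 14.8%). In the authors' normalized values 13 were higher and 11 lower (10.1% and 14.9%), with a median of 0.02 for the members and 0.02 for all. With no scaling at all, 0 were higher and 42 lower (5.66% and 33% of all), and the limma fit centred on 7 spike-in probes called 0 in either direction, where 3 member probes (1.83%, against 20.3% of all tested probes) had an unadjusted p under 0.05 and 0% and 0.0076% of all probes were called. The members' median lay 0.07 above that of all probes in the 4 settings that shift a whole array at once, which fix this distance by construction. In the other 3 it lay 0.03 above (quantile), 0.01 above (authors' values) and at -0.03 (normexp).

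**Figure D2:**
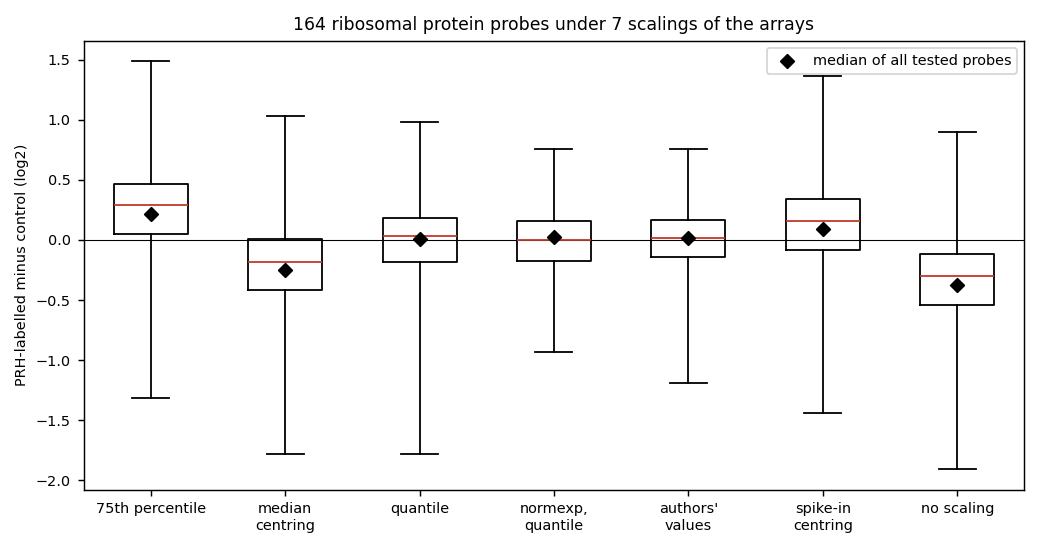
Difference between PRH-labelled and control tumours (log2, vertical axis) of the 164 tested ribosomal protein probes under 7 scalings. Boxes show quartiles and the red median, whiskers the full range, and the black diamonds the median of all tested probes. The boxes shift up and down together with the diamonds, with members' medians of 0.29 at the 75th percentile and -0.30 without scaling.

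Calls that did not depend on the scaling were few among the members. Over the 5 scalings that place all arrays on 1 level (75th percentile, median, quantile, normexp and the authors' values), 0 member probes were called higher in all 5 (5.5% of all tested probes were) and 6 were called lower in all 5 (9.12%). The 5 rescale the same arrays and are not independent of each other. Normexp and the authors' values called nearly equal shares of all tested probes, 10.3% and 10.1% higher and 14.8% and 14.9% lower. At least 4 of the 5 called 4 members higher (8.8% of all) and 10 lower (13%). The members named for this were chosen after their values were seen. The 4 higher ones were probes of Rpl36, Rps27, Rpl34 and Rps3, and that of Rpl36 alone was its gene's brightest. The brightest probes of Rps27, Rpl34 and Rps3 differed by 0.37, 0.23 and 0.28, and each was called higher in 0 of the 5. The 6 lower in all 5 were probes of Rps15a, Rpl21, Rpl35a, Rpl7a, Rpl17 and Rpl36a, and none of them was its gene's brightest probe. The Rps15a probe was well above background on 1 PRH-labelled and 4 control arrays, so it entered the test through the group where it is high.

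Among large-subunit genes, Rpl36 had the smallest p of the family. Its brightest probe stood at 8.54, 8.54, 8.75 and 8.53 in PRH-labelled tumours, against 7.82, 7.68, 7.54 and 7.72 in control tumours. PRH-labelled tumour 3 was the highest and the groups did not overlap. The difference was 0.90 (SE 0.122, adjusted p = 0.00674). It was 0.51 after quantile normalization (adjusted p = 0.0245) and 0.43 with median centring (adjusted p = 0.0509). All 3 Rpl36 probes were called higher, with differences from 0.49 to 0.90.

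Rpl41, the smallest ribosomal protein, was at 9.37, 9.28, 9.35 and 9.23 in PRH-labelled tumours, against 8.72, 8.48, 8.58 and 8.69 in control tumours. Every PRH-labelled tumour lay above every control tumour, and the difference was 0.69 (SE 0.116, adjusted p = 0.00786). Rpl29 was at 8.80, 8.69, 8.78 and 8.73, against 8.24, 7.99, 8.18 and 7.98 in control tumours, again without overlap (difference 0.65, SE 0.12, adjusted p = 0.00938). Rpl13 had 8.24, 8.10, 8.23 and 8.09 in PRH-labelled tumours, against 7.65, 7.37, 7.62 and 7.41 in control tumours. In Rpl13 tumours 1 and 3 were the higher pair of both groups, and the difference was 0.65 (SE 0.124, adjusted p = 0.0102). After quantile normalization the differences were 0.09 for Rpl41, 0.20 for Rpl29 and 0.34 for Rpl13, and none of these passed. Rpl13 passed with the authors' values (0.35, adjusted p = 0.0365). The other Rpl13 probes disagreed with each other: the second differed by 0.61 and was called higher, and the third differed by -0.57, was called lower in 4 of the 5 scalings but not the main one, and passed with the mouse number as a block (adjusted p = 0.0293). Averaged over its 3 probes, Rpl13 differed by 0.23 (adjusted p = 0.239).

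Small-subunit genes gave the same picture at the main scaling. Rps16, a protein near the decoding site, was at 8.99, 8.88, 9.04 and 8.84 in PRH-labelled tumours, against 8.38, 8.12, 8.35 and 8.16 in control tumours. The groups did not overlap (difference 0.69, SE 0.123, adjusted p = 0.00894), and all 3 Rps16 probes were called higher, at 0.53 to 0.70. Rpsa, also known as the laminin receptor precursor, was at 8.85, 8.71, 8.80 and 8.64 in PRH-labelled tumours, against 8.20, 8.07, 8.23 and 8.10 in control tumours. It differed by 0.60 without overlap (SE 0.115, adjusted p = 0.0103). Rps14, whose loss on one allele marks the human 5q- syndrome, differed by 0.57 (SE 0.109, adjusted p = 0.0103). It was at 8.66, 8.68, 8.80 and 8.68 in PRH-labelled tumours, against 8.07, 8.09, 8.16 and 8.21 in control tumours, again without overlap. After quantile normalization these differences were 0.20 for Rps16, 0.14 for Rpsa and 0.11 for Rps14, and none passed. Rps14 turned negative with normexp (-0.05) and the authors' values (-0.04).

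**Figure D3:**
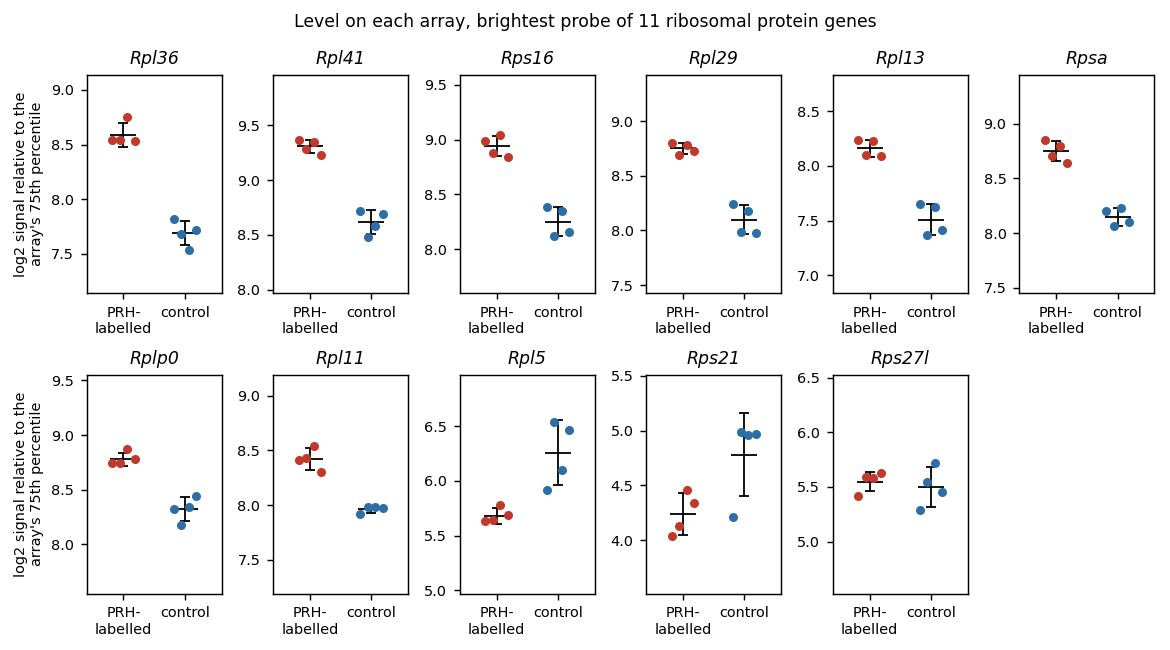
Level of the brightest probe of 11 ribosomal protein genes on each array (log2 signal relative to the array's 75th percentile, vertical axes of equal span). Red points are the 4 PRH-labelled tumours and blue points the 4 control tumours, with mean and SD in black. The groups are apart in the first 8 genes, Rpl5 lies lower in every PRH-labelled tumour, and the groups overlap in Rps21 and Rps27l.

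The stalk proteins Rplp0, Rplp1 and Rplp2 form the arm that recruits elongation factors. Rplp0 was at 8.74, 8.74, 8.87 and 8.78 in PRH-labelled tumours, against 8.32, 8.18, 8.34 and 8.44 in control tumours, a difference of 0.46 with no overlap (SE 0.115, adjusted p = 0.0235). Its other 2 probes differed by -0.02 and -0.16, neither called at this scaling, and the last was called lower in the other 4 of the 5. The 3 probes averaged 0.10 (adjusted p = 0.557). Rplp1 was at 8.39, 8.41, 8.52 and 8.40, against 8.14, 8.04, 8.02 and 8.04 in control tumours, with no overlap (0.37, SE 0.107, adjusted p = 0.0394). With the mouse number as a block its adjusted p was 0.0771. Rplp2 differed by 0.36 (SE 0.124, adjusted p = 0.0704). Its values were 8.40, 8.42, 8.62 and 8.22 in PRH-labelled tumours, against 8.05, 8.04, 8.05 and 8.08 in control tumours. All 3 differences were negative with median centring and after quantile normalization. Of the 8 fits without 1 tumour, Rplp0 was called in those without controls 1, 3 and 5 and Rplp1 in the one without control 1.

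Rpl5 was the single gene whose brightest probe was called lower, and it has 1 probe. With Rpl11 and the 5S RNA it forms the particle that binds Mdm2. Rpl5 was at 5.63, 5.64, 5.78 and 5.69 in PRH-labelled tumours, against 5.92, 6.54, 6.10 and 6.47 in control tumours. The control tumours spread more widely, with control 1 the lowest, and the groups did not overlap. The difference was -0.57 (SE 0.169, adjusted p = 0.0411). It was called lower in 4 of 5 scalings, at -1.04 with median centring (adjusted p = 0.0152), -0.64 after quantile normalization (adjusted p = 0.02) and -0.41 with normexp (adjusted p = 0.0339), and not with the authors' values (-0.39, adjusted p = 0.0535). With the mouse number as a block its adjusted p was 0.054, and it passed in 1 of the 8 fits that left out a tumour, the one without control 1 (adjusted p = 0.0111). Its partner Rpl11 had levels of 8.41, 8.43, 8.54 and 8.30 in PRH-labelled tumours, against 7.92, 7.98, 7.98 and 7.97 in control tumours. Rpl11 was higher without overlap (0.46, SE 0.111, adjusted p = 0.0218) at the 75th percentile, and stood at 0.06 after quantile normalization. Rpl11 was called in the fits without PRH-labelled tumour 5, control 1 and control 3, and in none of the other 5. Its other 2 probes differed by -0.12 and -0.22, the first of them called lower with median centring (adjusted p = 0.0417), and the average of the 3 was 0.04 (adjusted p = 0.834).

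Other genes with the smallest p in the downward direction were not called at the main scaling. Rps21 was at 4.04, 4.13, 4.46 and 4.34 in PRH-labelled tumours, against 4.21, 4.99, 4.96 and 4.97 in control tumours. Control 1 lay among the PRH-labelled values, and the difference was -0.54 (SE 0.214, adjusted p = 0.104). Without control 1 Rps21 was called lower (-0.73, adjusted p = 0.00771). Rpl13a, which also acts outside the ribosome in a complex that silences inflammatory mRNAs, differed by -0.19, Rps25 by -0.17, Rps27a by -0.09 and Rpl7a by -0.02. Rps25, needed by several viral internal ribosome entry sites, was called lower in 3 of the 5 scalings, as was Rps27a, which is made as a fusion with ubiquitin.

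Genes with several probes often disagreed with themselves. Of 49 genes with more than 1 tested probe, 28 had all differences of one sign and 21 had both signs. In 32 of the 49 the brightest probe had a higher difference than the dimmest. Across the 80 genes, 42 had at least 1 probe called higher, 7 had 1 called lower, and 33 had no call (52.5%, 8.75% and 41.2%). Of all 16373 named genes tested 12.3% had a probe called higher, 17% one called lower and 71.2% none. Among genes with several tested probes the shares were 55.1%, 12.2% and 36.7% of the 49 members, and 16.4%, 29.3% and 56.1% of all 4124. All tested probes were called higher in 4 genes with several probes, namely Rpl24, Rpl36, Rpl38 and Rps16. Rpl17 and Rpl35a had probes called in both directions.

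For Rpl35a, mutated in some patients with Diamond-Blackfan anaemia, the brighter probe was at 7.50, 7.49, 7.56 and 7.45 in PRH-labelled tumours, against 6.84, 7.04, 7.14 and 7.04 in control tumours. It was higher without overlap (0.49, SE 0.117, adjusted p = 0.021). The dimmer probe was at 5.04, 5.08, 5.19 and 5.17, against 5.29, 5.93, 5.76 and 5.87 in control tumours. It was lower without overlap (-0.59, SE 0.166, adjusted p = 0.035), and was so in all 5 scalings. The brighter probe was called at the 75th percentile alone. For Rpl17, with 7 probes, the brightest called probe was at 7.30, 7.27, 7.48 and 7.38 in PRH-labelled tumours, against 6.92, 6.99, 6.75 and 7.01 in control tumours (0.44, SE 0.121, adjusted p = 0.0343, and 0.0689 when mouse number was a block). A dim Rpl17 probe was at 3.07, 2.97, 2.90 and 3.15, against 3.25, 3.83, 3.60 and 3.64 in control tumours (-0.56, SE 0.155, adjusted p = 0.0341, and 0.054 with the block). Neither pair of groups overlapped. Of the 8 fits without 1 tumour, the one without control 1 called all 4 probes of these genes, with -0.67 for the dim Rpl17 probe (adjusted p = 0.00679) and -0.73 for the dim Rpl35a probe (adjusted p = 0.00311). The fit without control 3 called the brighter Rpl35a probe too, and the other 6 called none of the 4.

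Other dim probes were lower as well. For Rpl21 a probe at -4.14, -3.87, -3.72 and -4.01 in PRH-labelled tumours, against -3.33, -2.10, -2.57 and -2.47 in control tumours, differed by -1.32 (SE 0.261, adjusted p = 0.0114), while the other Rpl21 probe differed by 0.13. For Rps15a the probe called lower (-1.13, adjusted p = 0.00913) was not well above background on 3 of the 4 PRH-labelled arrays, so its size is not well measured, and its gene's brightest probe differed by 0.32. A dim Rpl7a probe differed by -0.70 (adjusted p = 0.0383), and a dim Rpl36a probe by -0.75 (adjusted p = 0.0486). Ribosomal protein genes have many processed pseudogenes and near-identical copies, so which transcripts a probe reads is uncertain for every one of these genes, and the probe sequences were not used here.

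**Figure D4:**
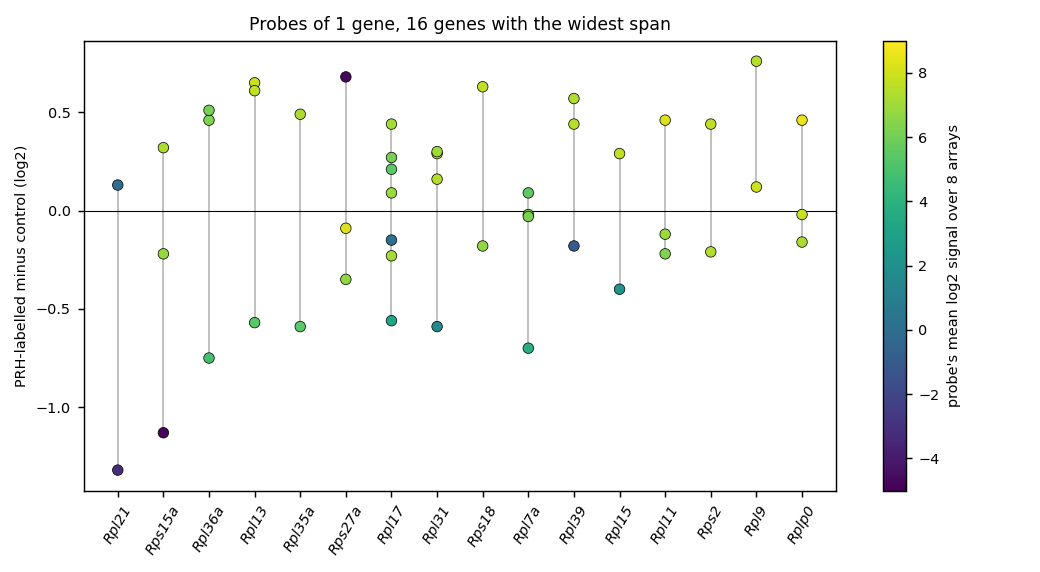
Difference between PRH-labelled and control tumours (log2, vertical axis) of every tested probe of the 16 genes whose probes span the widest range, coloured by the probe's mean level over 8 arrays. In Rpl21, Rps15a, Rpl36a and Rpl13 the lowest point is the dimmest probe and lies more than 1 log2 unit below the highest. In Rps27a, which spans 1.03, the dimmest probe is the highest point.

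Above a level of 6 the difference was larger at brighter probes, in the members and in the other probes alike. At a mean level of 8 or more, 41 member probes had a median difference of 0.46, with 28 called higher (68.3%), and 120 other probes had a median of 0.43, with 72 called higher (60%). Between 7.5 and 8 the medians were 0.35 for 36 members and 0.30 for 149 others, and between 7 and 7.5 they were 0.31 for 27 members and 0.22 for 182 others. Between 6 and 7 the 21 members had a median of -0.02, and the 359 other probes 0.07. Below 5 the 27 members had a median of -0.02 with 2 called higher and 5 lower (7.41% and 18.5%), against a median of 0.22 over 37916 other probes (15.8% and 10.3%). Within the brightest 10% of all tested probes, which holds 143 of the 164 member probes, the members' median was 0.30 and that of all probes 0.06, but this share reaches down to a level of 3.11, whereas the members' median level there was 7.57. The bands were chosen after the data were seen. The part that brightness has in the members' calls was not tested.

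**Figure D5:**
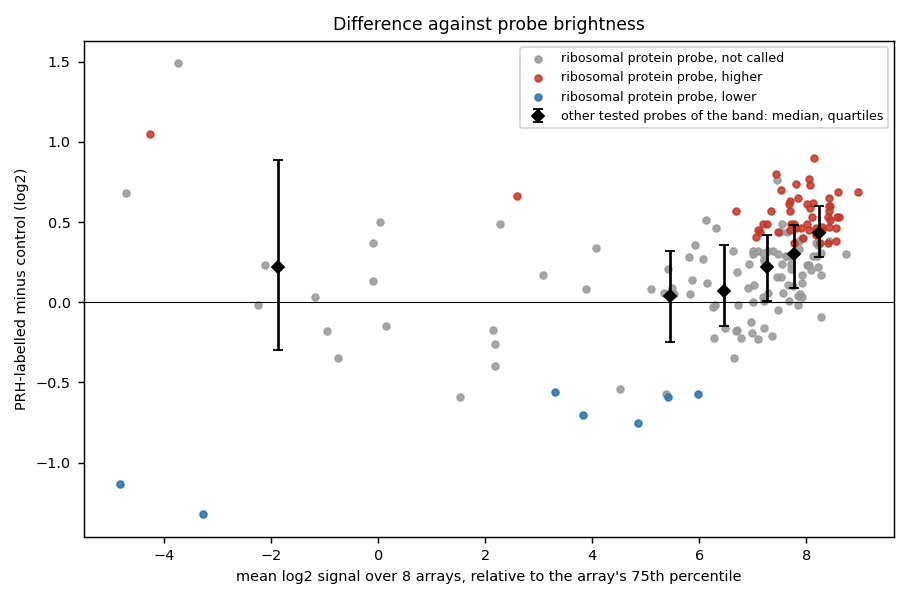
Difference between PRH-labelled and control tumours (log2, vertical axis) against the mean level of each of the 164 ribosomal protein probes over 8 arrays (log2 relative to the 75th percentile, horizontal axis). Red, blue and grey points were called higher, called lower and not called, and black diamonds with bars show the median and quartiles of the other tested probes in each brightness band. Between levels of 7 and 8 the red points lie above the diamonds, which stand at 0.22 and 0.30. At a level of 8 or more the diamond is at 0.43, with red points above and below it. The blue points lie below a level of 6.

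The tumours of each group were close together over the family. The median over members of the within-group SD was 0.123, against 0.346 for all tested probes and 0.186 for the brightest 10%. The members' median level was 7.49, 7.56, 7.63 and 7.52 in PRH-labelled tumours, against 7.20, 7.28, 7.28 and 7.29 in control tumours. Before scaling, the members' median signal was higher in every control tumour, at 122090, 144043, 138203 and 138469 in PRH-labelled tumours and 147658, 199688, 168595 and 157455 in control tumours. PRH-labelled tumour 3 was the highest of the 8 in 85 of the 164 probes, and control 1 the lowest of the 8 in 79.

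Some of the paralogs whose symbols end in l stand in for the common protein in particular tissues. Rpl10l, the testis form of Rpl10, was at -3.71, -4.18, -3.62 and -3.47 in PRH-labelled tumours, against -4.44, -4.89, -5.11 and -4.76 in control tumours. It was higher without overlap (1.05, SE 0.209, adjusted p = 0.0114), near the low end of the scale. Rpl10l was called with median centring too (0.59, adjusted p = 0.042) but not after quantile normalization (0.51, adjusted p = 0.0635). Nor was it called with normexp (0.17, adjusted p = 0.303) or the authors' values (0.22, adjusted p = 0.305). At mean levels of -4.84 to -4.10, where this probe lay, all tested probes had a median difference of 0.70 and 17.4% were called higher. Rpl10 differed by 0.30 (adjusted p = 0.0812) and was negative in the 4 other scalings of the set of 5. Rpl3l, the striated muscle form of Rpl3, was at -2.45, -2.93, -4.15 and -2.41 in PRH-labelled tumours, against -3.41, -3.76, -6.85 and -3.90 in control tumours. The groups overlapped, control 3 lay far below the rest, and the difference of 1.49 did not pass (SE 0.796, adjusted p = 0.205), although it did with the mouse number as a block (adjusted p = 0.0294). Rpl3 was higher by 0.49 (adjusted p = 0.0194). The skeletal muscle markers (Acta1, Ckm and Myh4) had a summed linear level, in units of the array's 75th percentile, of 1.28 to 4.06 in PRH-labelled and 0.294 to 9.86 in control tumours. None of these 3 was called, and their part in the Rpl3l values was not tested. Rpl39l differed by -0.02, against 0.44 for Rpl39 (adjusted p = 0.114), Rps27l by 0.05, against 0.37 for Rps27 (adjusted p = 0.0632), and Rps4l by -0.35 (adjusted p = 0.0998), against 0.41 for Rps4x (adjusted p = 0.0371, and 0.0749 when mouse number was a block). The groups overlapped in Rpl39l, Rps27l and Rps4l. Without control 1 Rps4l was called lower (-0.41, adjusted p = 0.0499), Rps4x was called in that fit alone of the 8 without 1 tumour, and Rpl3 in those without PRH-labelled tumours 2 and 5 and controls 1, 2 and 3.

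Of 7 ribosomal or related proteins outside the symbol rule 3 were called higher and 1 lower (42.9% and 14.3%, against 16.1% and 10.1% of all tested probes). With the mouse number as a block the counts were 2 and 0. Of all bright probes outside the members, 26.9% were called higher at levels of 7 to 7.5, 33.6% at 7.5 to 8 and 60% at 8 or more. Rps3a1 was higher by 0.48 (adjusted p = 0.0233) and Fau, a fusion that gives Rps30, by 0.42 (adjusted p = 0.0287), each in 1 of 5 scalings. A second Rps3a1 probe differed by -0.42. Rpl7l1, a dim probe of a ribosome assembly protein, was lower, by -0.68 at the main scaling (adjusted p = 0.0263), in all 5. Under the block on mouse number Fau (adjusted p = 0.059) and Rpl7l1 (adjusted p = 0.0547) were not called. Rpl36al, Rack1 and Rpl22l1 were not called. Of 18 members that are mutated in Diamond-Blackfan anaemia, a failure of red cell production, 8 were called higher and 1, Rpl5, lower (44.4% and 5.56%, against 16.1% and 10.1% of all tested probes), with a median of 0.37. With the mouse number as a block 5 were called higher and 0 lower, since Rps28 (adjusted p = 0.0502), Rpl26 (0.0665), Rpl35 (0.0721) and Rpl5 (0.054) no longer passed. This is the direction of the family at this scaling, and after quantile normalization their median was 0.02.

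Other TOP mRNAs, which share the translational switch, had a median difference below that of the members, a contrast that was not tested. Of 16 such genes 2 were called higher and 0 lower (12.5% and 0%, against 16.1% and 10.1% of all tested probes). Their median difference was -0.02, with the brightest probe taken for each gene. On that footing the median was 0.37 for the members and 0.29 for all genes and unnamed probes. Several of the 16 were dimmer than most members, such as Eif2s3x, at a mean of 1.99 in PRH-labelled and 2.02 in control tumours. The difference varied with brightness, and the part of brightness here was not tested. The higher ones were Eif3k (0.68, adjusted p = 0.00986), a subunit of the initiation factor eIF3, and Tpt1 (0.49, adjusted p = 0.0216). Eif3k was called in 4 of 5 scalings, and its other probes differed by 0.14 and 0.09. Tpt1 was called in 1, with 0.02 after quantile normalization. The elongation factor Eef2 differed by -0.37, not called at the main scaling but lower in the other 4 of the 5 (-0.57 after quantile normalization), and Eif3f by -0.32, called lower in 1 of 5. Of 16 genes that control TOP translation 1 was higher and 3 were lower (6.25% and 18.8%), with a median of -0.18. Tsc1 was called lower as well under the block on mouse number (adjusted p = 0.0307). The mTOR partner Rptor (-0.91, SE 0.14, adjusted p = 0.00706), its activator Rheb (-1.60, SE 0.293, adjusted p = 0.00926) and Mtor itself (-0.81, SE 0.188, adjusted p = 0.0184) were lower in all 5 scalings, as were 9.12% of all tested probes. These 3 probes were dim. At mean levels of -0.75 to 0.33, where Mtor lay, 18.3% of all tested probes were called lower. The share was 17.8% at 0.33 to 1.55, where Rptor and Rheb lay. The part of brightness in these calls was not tested. The translation repressor Eif4ebp1 was higher by 0.67 (SE 0.133, adjusted p = 0.0116), in 4 of 5 scalings. These are mRNA levels, and neither translation nor kinase activity was measured.

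Mitochondrial ribosomal proteins, which make up the separate ribosome of that organelle, gave the following counts. Of 76 tested genes 5 were called higher and 13 lower (6.58% and 17.1%, against 16.1% and 10.1% of all tested probes), with a median difference of -0.06, and 11 were lower in all 5 scalings (14.5%, against 9.12%). With the mouse number as a block 3 were higher and 13 lower. The shares over all tested probes varied with brightness. At mean levels of -0.75 to 0.33, 0.33 to 1.55 and 1.55 to 3.11, 18.3%, 17.8% and 13.1% were called lower. There 14.4%, 10.2% and 8.26% were called higher. Above 3.11 the shares were 7.52% lower and 15.8% higher. Many of the mitochondrial ribosomal protein probes lay between -0.75 and 3.11, and the part of brightness in their calls was not tested. The difference between the mitochondrial and cytosolic families was not tested.

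Markers of cell types were counted beside these, where 16.1% of all tested probes were called higher and 10.1% lower. Of 6 epithelial markers 2 were higher and 0 lower (33.3% and 0%). They were Krt14 (1.93, adjusted p = 0.0188), in all 5 scalings, and Krt18 (0.52, adjusted p = 0.026), in 1 of 5. Krt8, the partner of Krt18, differed by -0.44 (adjusted p = 0.0763) and was lower in 2 of 5. The summed linear level of the 6 was 343 to 458 in PRH-labelled and 258 to 339 in control tumours. Of 8 endothelial markers 1 was higher, Kdr, and 0 lower (12.5% and 0%). Kdr differed by 1.17 (adjusted p = 0.0243) and was called in 4 of 5 scalings, while a second Kdr probe differed by -0.48. The 8 had a summed level of 30.9 to 37.3 in PRH-labelled and 14.9 to 33.2 in control tumours. Of 6 leukocyte markers 1 was lower, Lyz2 (16.7%), and of 4 fibroblast markers 1 was lower, Pdgfra (25%), each in all 5 scalings. No marker of these lists was called higher at the main scaling. The summed levels of the lists were 45.4 to 62.6 and 262 to 334 in PRH-labelled tumours, against 41.9 to 65.1 and 261 to 379 in control tumours. Under the block on mouse number Cd3e was higher too (adjusted p = 0.0273). Of 3 adipocyte and 2 measured erythroid markers none was called. No measured marker was below background on every array. Their part in the members' differences was not tested.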

How the data were processed

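The deposited scanner files hold spot intensities, made with Agilent Feature Extraction 10.7.3.1 per the file headers. Version 9.1 is named in the submitters' processing notes. The signal used is the deposited background-corrected intensity, on a linear scale. A table of normalized values was deposited by the authors as linear intensities, with the same maximum, 489728, in every column, medians of 123.4 to 125.08 and rank correlations of 0.9888 to 0.9954 with the scanner values; its background correction and any offset are not given in the sources used here.

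From the log2 processed signal of each spot, the 75th percentile over the array's non-control spots was subtracted, with spots of a probe averaged. Probes well above background on at least 4 of 8 arrays were tested with limma 3.58.1 in R 4.3.3 (lmFit, eBayes, two-sided, Benjamini-Hochberg over 39463 probes, threshold 0.05), with group as the single term. The fit was tested on simulated data. Array number, 4 a group, limits the precision. Nothing in the labels says whether mice with 1 number are related. The deviations of same-numbered arrays correlated at 0.2, 0.422, 0.651 and 0.257 (numbers 1, 2, 3 and 5), all above 0.1, so a fit with the number as a block was added. No correlation of differently numbered arrays is given beside them, so a pairing is not shown by these values. The main calls and SEs come from the fit without the block, and the block is given where it changes a call. Each number is also a slide row.

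Symbols came from RefSeq accessions in the files through a GRCm38.p6 gene table used for names alone; 26576 probes had a symbol. Normexp (offset 50) used the median signal in place of the mean signal planned, which the files used here do not hold. Fit values are named for the brightest probe of the 8 genes with the smallest p in each direction, of the stalk genes, Rpsa, Rpl5, Rpl11 and the paralogs ending in l with their partners, and for both probes of genes called in opposite directions. A group of lists adds up to 4 genes each. The members, lists and rules were chosen with earlier results of these data known. Results of some genes are not reported here. Genes with the most similar pattern were not listed, since the arrays fall into 2 clusters.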

Additional observations from a re-analysis of the deposited data

Results flagged for a closer look

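Single tumours stood apart from the other 3 of their group in 10 of the values reported, by the gap to the nearest tumour over the group's range (Dixon's test). Rpl36 in PRH-labelled tumour 3 was at 8.75, with the other 3 at 8.53 to 8.54, and Rps14 in that tumour was at 8.80, against 8.66 to 8.68. Rplp1 was at 8.52 in PRH-labelled tumour 3, against 8.39 to 8.41, and at 8.14 in control 1, against 8.02 to 8.04. Rps21 was at 4.21 in control 1, where the others were at 4.96 to 4.99, and Rpl11 at 7.92 there, against 7.97 to 7.98. In control 3, Rpl3l was at -6.85 (others -3.90 to -3.41), Rpl39 at 6.86 (7.42 to 7.44) and Rps4x at 6.70 (6.90 to 6.92). The second Rpl9 probe was at 5.02 in control 5, against 7.67 to 7.85 in the other control tumours, and its difference of 0.76 (SE 0.615) rests on that value. Chance marks about 1 in 20 groups of 4. Over all members 22 of 328 groups were marked (6.71%), 9 by control 1 and 5 by PRH-labelled tumour 3.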

How the results depend on the processing

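Against 52 higher and 7 lower calls, median centring gave 1 and 21, quantile normalization 7 and 14, normexp 15 and 16, and the counts were 13 and 11 with the authors' values, 0 and 42 with no scaling, and 0 and 0 with spike-in centring. Averaging a gene's probes gave 25 and 1 of 80 genes, the brightest probe per gene 35 and 1, and no filter on low signal 42 and 2 of 166 probes. With the replicate block (mouse number) they were 46 and 7, and the calls it changed are given beside their genes. Leaving out 1 tumour gave 26 to 51 higher and 2 to 14 lower. The members' median relative to all probes, 0.07, was 0.20 when all 8 arrays had to be above background, where 31742 probes were tested, and 0.02 to 0.12 without 1 tumour each.

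Signs turned as follows. With median centring, Rplp0 was at -0.0044, Rplp1 -0.10, Rplp2 -0.11, Rpl11 -0.01, Rps27l -0.41, Rpl10 -0.16, Rpl39 -0.02, Rps27 -0.10, Rps4x -0.06 and Rpl17 -0.03. After quantile normalization, Rplp0 was at -0.02, Rplp1 -0.05, Rplp2 -0.06, Rpl10 -0.17 and Rps27 -0.04. With no scaling, Rps14 was at -0.02, Rplp0 -0.13, Rplp1 -0.22, Rplp2 -0.24, Rpl11 -0.14, Rps27l -0.54, Rpl10 -0.29, Rpl39 -0.15, Rpl3 -0.10, Rps27 -0.23, Rps4x -0.18, Rpl17 -0.16 and Rpl35a -0.11. With normexp, Rps14 was at -0.05, Rplp0 -0.15, Rps27l -0.07 and Rpl10 -0.17. With the authors' values, Rps14 was at -0.04, Rplp0 -0.15, Rps27l -0.05 and Rpl10 -0.17. Rps27l was at -0.08 with spike-in centring. The mean of a gene's probes was 0.08 for Rps27a, 0.01 for Rpl17 and -0.05 for Rpl35a. Without 1 tumour each, Rpl7a ran from -0.07 to 0.02, Rpl39l from -0.38 to 0.33 and Rps27l from -0.02 to 0.13. The scalings shift each array as a whole or by brightness, which is their construction, and the cause of the groups' difference in percentile was not tested. Calls of the 8 genes with the smallest p for a higher level and of Rpl10l held in all 8 fits without 1 tumour. The 8 genes were picked by p on these same arrays, so these fits are no independent check. Of them and Rpl10l, Rpl36 alone was still called after quantile normalization.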
